A study of Mus musculus with 4 samples.

Results

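Calcium release and uptake in striated muscle rests on a small set of membrane proteins, and 10 of their genes were followed here out of 27998 genes counted: *Ryr1*, *Ryr3*, *Cacna1s*, *Cacng1*, *Atp2a1*, *Atp2a2*, *Casq2*, *Jph1*, *Jph2* and *Trdn*. The genes were taken as a list by function, with no threshold on their values. The list was chosen with earlier results of these data known. Its counts and medians, set beside those of all genes below, therefore describe the list and are no test of it. Their transcripts, counted as unique molecular identifiers (UMIs), were compared between satellite cells that express *Pax7*, differentiating cells that express *Myog*, and the non-myogenic cells sorted along with them, in 4 single-cell libraries.

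In a muscle fibre, a voltage sensor in the surface membrane, formed around the calcium channel subunit CACNA1S with the gamma subunit CACNG1, opens the ryanodine receptor RYR1 in the membrane of the sarcoplasmic reticulum, and calcium leaves the store to trigger contraction. The SERCA pumps ATP2A1 (the fast-fibre form) and ATP2A2 (the slow-fibre, cardiac and widely expressed form) return it to the store, where calsequestrins bind it, triadin ties the calsequestrin to the release channel, and the junctophilins hold surface and store membranes together. Satellite cells are the stem cells of skeletal muscle: PAX7 marks them, and MYOG appears as their progeny leave the cell cycle and begin to build the contractile apparatus.

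The libraries were made from sorted hindlimb muscle stem cells (ITGA7+, VCAM+, lineage-negative) of mouse models of Duchenne muscular dystrophy (DMD) and of their control strains, by droplet sequencing of transcript 3′ ends. B10 (C57/Bl10ScsSn, 15 weeks) was the control of *mdx* (C57BL/10ScSn-Dmdmdx, 11 weeks), and DBA (DBA/2, 13 weeks) was the control of D2-*mdx* (D2.B10-Dmdmdx, 14 weeks). Both models carry the *mdx* mutation of *Dmd*, on a C57BL/10 and on a DBA/2 background respectively. Each strain gave 1 library from 2 pooled male mice, so strain, age, sorting and library cannot be told apart in a comparison between libraries. The ages are those of the labels, and the study's methods give other ages. A ratio between a single pair of libraries has no replicate check and no test. The classes were compared over the 4 libraries, and DMD was compared with control over both pairs, the latter in a test chosen after the data were seen. The p-values rest on a spread that was estimated from these libraries and moderated over all genes. They say nothing of the spread between other mice.

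Cell classes were set by marker genes. Pax7-positive cells had at least 1 *Pax7* UMI and no *Myog* UMI, and Myog-positive cells had at least 2 *Myog* UMIs. Both had fewer than 5 UMIs from markers of non-myogenic cells. Non-myogenic cells had at least 5 UMIs from at least 2 such markers, with no UMI of *Pax7*, *Myf5*, *Myod1* or *Myog*. The markers were those of pericytes, vascular smooth muscle, endothelium, glia and Schwann cells, white blood cells or fibroblasts. These rules gave 4343, 3927, 2599 and 3111 Pax7-positive cells in B10, *mdx*, DBA and D2-*mdx*, and 113, 1186, 445 and 1157 non-myogenic cells. Myog-positive cells numbered 213 in *mdx* and 209 in D2-*mdx* but 10 in B10 and 24 in DBA, which limits each value of that class in the controls. Levels are UMIs per 1000000 UMIs of the class in a library (CPM), and intervals are 95% intervals that cover counting error only.

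The deposited libraries held 3539 to 9931 barcodes and 43542853 to 75482888 UMIs, and 3279 to 6313 cells were kept, with 6675 to 10434 median UMIs per cell. B10 stood apart by 4739 barcodes with fewer than 1000 genes, against 11 to 21 in the others. It also had 4143 barcodes with more than 8% mitochondrial UMIs, against 272, 30 and 219 in *mdx*, DBA and D2-*mdx*. Barcodes of both kinds were left out. At a limit of 5% mitochondrial UMIs, 3517 of its 4581 cells stayed. Libraries shared 5 to 16 barcodes pair by pair, at most 0.236% of the smaller library. *Dmd*, mutated in the models, was read in Pax7-positive cells at 326 CPM in B10 against 132 CPM in *mdx*, and at 291 CPM in DBA against 116 CPM in D2-*mdx*. Of the markers of the labelled cell type, *Pax7* set the class and is no check of it, while *Myf5*, which the rule for Pax7-positive cells did not use, was read there at 392 to 473 CPM in the 4 libraries. A list of 8 fibre genes, whose RNA can float free in muscle preparations, was summed by class. It gave 37.9, 63.0, 31.6 and 181 CPM in Pax7-positive cells of B10, *mdx*, DBA and D2-*mdx*, and 29.9, 40.8, 49.1 and 67.1 CPM in non-myogenic cells. In Myog-positive cells it gave 45.7, 686, 47.4 and 916 CPM, where B10 had 2 and DBA 6 of the 8 genes detected. These sums do not separate free RNA from transcripts of the cells themselves, and the part of free RNA in the results was not tested.

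RefSeq promoters, the 250 bases before the annotated start on GRCm38.p6, were at hand for 5 of the 10 genes, and those of 4 genes are printed because their genes were called between cell classes below: *Atp2a1* and *Ryr1*, higher in Myog-positive cells, and *Casq2* and *Jph2*, higher in non-myogenic cells. Capitals mark the E-box CAGCTG (the form that myogenic factors often use) or, in *Casq2*, a MEF2 box. All are written 5′ to 3′ on the gene's strand.
Atp2a1, chr7:126463074-126463323, minus strand: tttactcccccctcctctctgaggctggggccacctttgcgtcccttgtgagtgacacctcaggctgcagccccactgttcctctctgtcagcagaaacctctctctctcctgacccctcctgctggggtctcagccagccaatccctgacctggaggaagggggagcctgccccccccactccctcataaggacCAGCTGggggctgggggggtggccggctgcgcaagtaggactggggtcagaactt
Ryr1, chr7:29125152-29125401, minus strand: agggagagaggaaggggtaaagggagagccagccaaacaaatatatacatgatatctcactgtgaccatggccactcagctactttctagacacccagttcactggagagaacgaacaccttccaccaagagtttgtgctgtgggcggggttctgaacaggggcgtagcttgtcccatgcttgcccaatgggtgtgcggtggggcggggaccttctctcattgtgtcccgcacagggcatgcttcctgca
Casq2, chr3:102086165-102086414, plus strand: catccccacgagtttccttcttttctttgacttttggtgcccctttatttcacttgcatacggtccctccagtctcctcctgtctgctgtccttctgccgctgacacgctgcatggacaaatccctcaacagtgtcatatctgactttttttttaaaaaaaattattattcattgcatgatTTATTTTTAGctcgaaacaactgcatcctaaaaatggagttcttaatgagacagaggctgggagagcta
Jph2, chr2:163397994-163398243, minus strand, the first of 2 annotated starts: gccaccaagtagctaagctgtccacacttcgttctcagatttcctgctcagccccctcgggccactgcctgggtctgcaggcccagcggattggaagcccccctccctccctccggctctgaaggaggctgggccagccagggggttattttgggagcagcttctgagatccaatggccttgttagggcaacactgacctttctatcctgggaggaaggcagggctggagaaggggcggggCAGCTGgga
The *Atp2a1* promoter held 1 CAGCTG, 55 bases before the start, and the *Jph2* promoter held 1, 9 bases before it. The promoter of the other annotated start of *Jph2*, chr2:163397974-163398223, overlaps the printed one and holds the same CAGCTG, 29 bases before that start. The *Cacna1s* promoter, not printed, also held 1 CAGCTG, 123 bases before its start. The *Ryr1* promoter held none of the 4 motifs searched, which were the E-box CAGCTG, the general E-box spelled CANNTG that includes it, the CArG box and the MEF2 box. The *Casq2* promoter held 1 MEF2 box and 2 general E-boxes. Each motif is its own reverse complement, so that 1 scan covered both strands. Of 32851 mouse promoters of the same length, 13.0% held the E-box CAGCTG, 66.2% the general E-box, 1.47% a CArG box and 2.92% a MEF2 box, and these matches describe the letters only.

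Between cell classes, 9 of the 10 genes passed the filter on low counts (*Cacna1s*, with 8 UMIs in all 3 classes, did not). In Myog-positive against Pax7-positive cells, 6 were called higher at an adjusted p under 0.05 (*Atp2a1*, *Ryr1*, *Cacng1*, *Atp2a2*, *Casq2* and *Trdn*), where 13.8% of the 12751 genes tested were, and 1 was called lower (*Ryr3*), where 14.6% were. *Jph1* and *Jph2* were not called. The median log2 ratio of the 9 was 1.85, beside -0.10 over all genes tested. In non-myogenic against Pax7-positive cells, 3 were called higher (*Casq2*, *Jph2* and *Atp2a2*) against a background of 25.5%, 5 were called lower (*Ryr1*, *Ryr3*, *Cacng1*, *Atp2a1* and *Jph1*) against 23.4%, and *Trdn* was not called. The median log2 ratio there was -1.24, beside -0.05 over all genes.

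**Figure D1:**
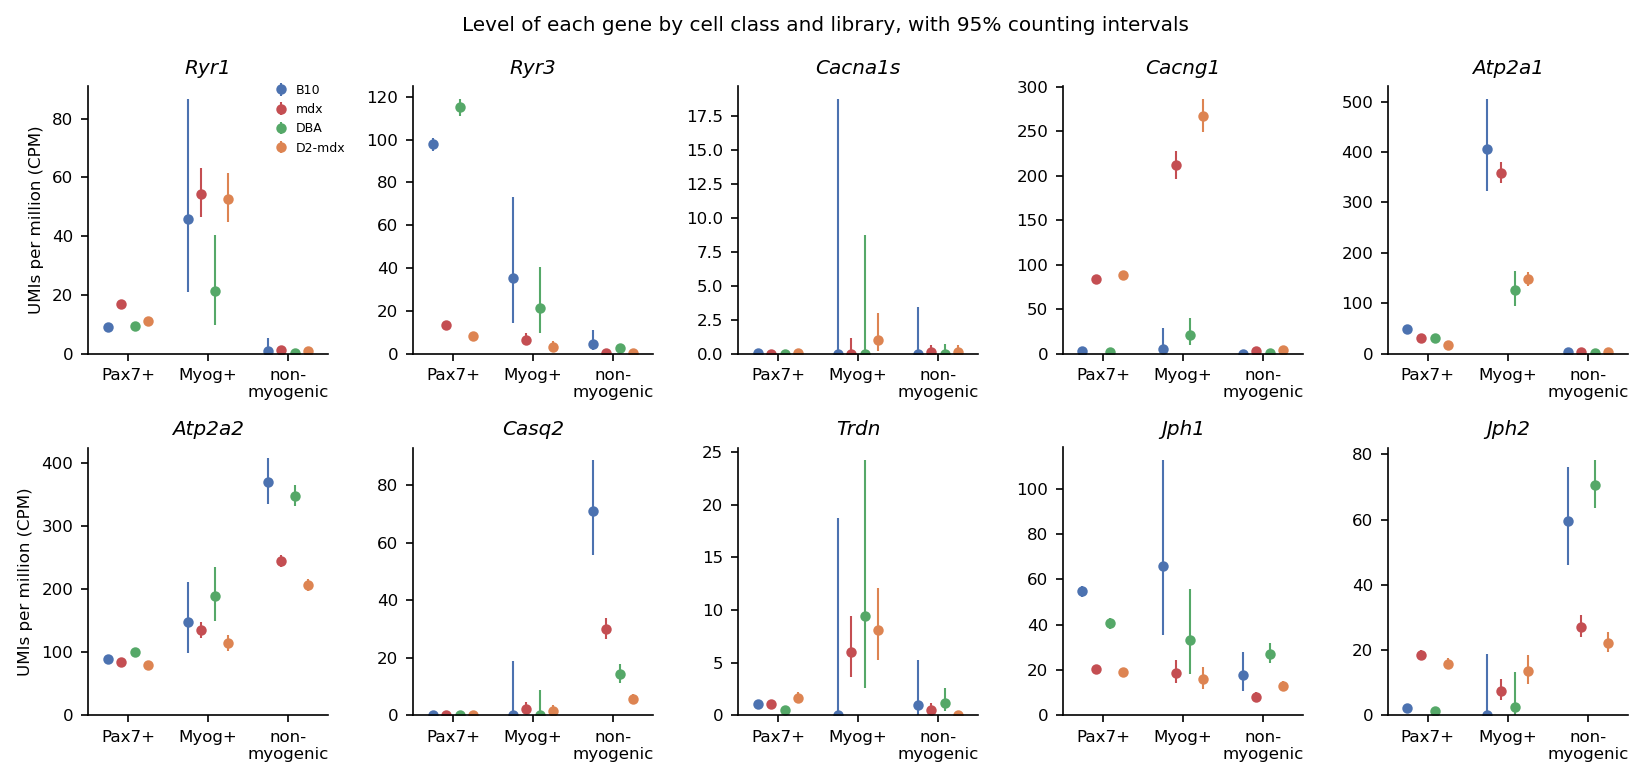
Level of each of the 10 genes in CPM (vertical axis) in Pax7-positive, Myog-positive and non-myogenic cells (horizontal axis) of the B10, mdx, DBA and D2-mdx libraries, with bars for the 95% counting interval. Atp2a1 is highest in the Myog-positive cells of every library, Ryr3 in the Pax7-positive cells, and Casq2 and Atp2a2 in the non-myogenic cells, while Cacng1 and Jph2 separate mdx and D2-mdx from their controls within Pax7-positive cells.

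Between DMD and control libraries, a gene was counted as higher or lower when its CPM ratio passed 2-fold and it had at least 10 CPM in a library of the pair. In Pax7-positive cells 7 of the 10 genes reached 10 CPM in each pair. Of these, 2 were higher (*Cacng1* and *Jph2*) and 2 lower (*Ryr3* and *Jph1*) in *mdx* than in B10, where 4.4% of 8440 genes were higher and 4.63% lower. The same genes made up the 2 higher and 2 lower in D2-*mdx* against DBA, where 4.59% of 8433 genes were higher and 4.57% lower. Those 7 genes had a median log2 ratio of -0.09 in the first pair and -0.33 in the second, beside -0.03 and -0.06 over all genes at that level. Over the whole list of 10 genes the medians were -0.06 and 0.50.

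DMD was then tested against control over both pairs in Pax7-positive cells, with the background as a term and 1 residual degree of freedom. Of the 8 members tested, 3 were called higher (*Cacng1*, *Jph2* and *Ryr1*), where 17% of 13868 genes were, and 3 lower (*Ryr3*, *Atp2a1* and *Jph1*), where 14.4% were. *Atp2a2* (log2 ratio -0.16, edgeR adjusted p = 0.294) and *Trdn* (0.82, edgeR adjusted p = 0.264) were not called. Over 20 alternatives, *Cacng1*, *Jph2*, *Ryr3* and *Jph1* were called in all 20, *Atp2a1* was not called in 2 of them and *Ryr1* in 12. Those of the 20 that changed only Myog-positive or non-myogenic cells, and a stricter fibre limit, repeated the reported fit. They could not lose a call.

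**Figure D2:**
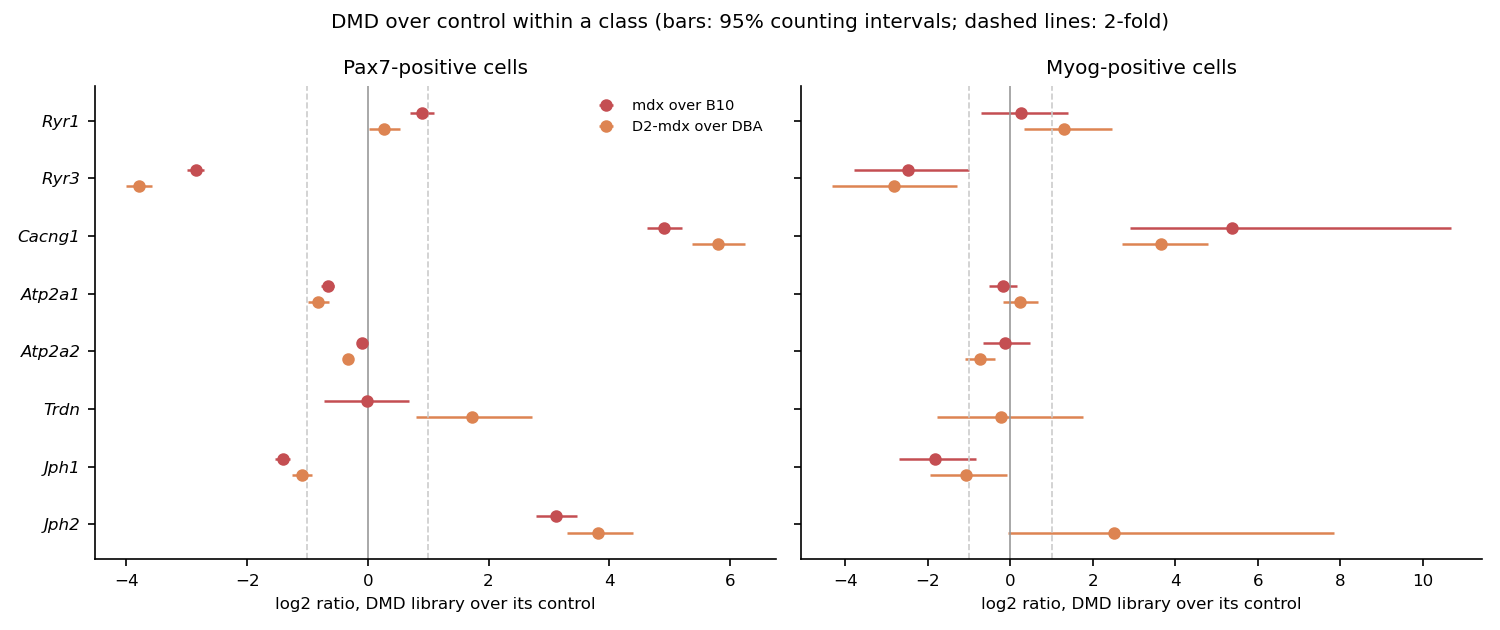
log2 ratio of CPM (horizontal axis) of mdx over B10 and of D2-mdx over DBA for 8 genes in Pax7-positive and in Myog-positive cells, with 95% counting intervals and dashed lines at 2-fold. Cacng1 and Jph2 lie to the right of the 2-fold line and Ryr3 and Jph1 to the left of it in Pax7-positive cells of both pairs, and intervals are far wider in Myog-positive cells, where B10 and DBA have 10 and 24 cells.

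The release channels were split by cell class. *Ryr1*, the skeletal muscle release channel (GRCm38 chr7:29003344-29125179, minus strand), was read in Pax7-positive cells at 9.06 CPM in B10 and 9.20 CPM in DBA, and at 16.9 CPM in *mdx* and 11.1 CPM in D2-*mdx*. In Myog-positive cells it stood at 45.7 CPM in B10 (9 UMIs) and 21.3 CPM in DBA (9 UMIs), and at 54.4 CPM in *mdx* (171 UMIs) and 52.7 CPM in D2-*mdx* (156 UMIs). Every library thus had more *Ryr1* in Myog-positive cells, by 2.34, 1.69, 1.21 and 2.24 on the log2 scale in the order B10, *mdx*, DBA, D2-*mdx*. The fitted log2 ratio was 1.94 (SE 0.22, edgeR adjusted p = 0.000232). Non-myogenic cells held 1 to 11 *Ryr1* UMIs a library, and the fitted log2 ratio to Pax7-positive cells was -4.10 (SE 0.28, edgeR adjusted p = 1.64e-06).

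In Pax7-positive cells, *Ryr1* was 1.86-fold higher in *mdx* than in B10, a log2 ratio of 0.90 (95% interval 0.70 to 1.09), and the log2 ratio of D2-*mdx* to DBA was 0.27 (0.02 to 0.53), so neither pair passed 2-fold. Over both pairs the fitted log2 ratio was 0.64 (SE 0.20, edgeR adjusted p = 0.0457), and the call was lost in 12 of 20 alternatives, with adjusted p from 0.0328 to 0.853. Some of the 20 left the Pax7-positive cells unchanged and could not lose it. Without the Pax7-positive cells that held a *Cdkn1c* or *Postn* UMI the log2 ratios were 0.04 and -0.08, in an alternative chosen after the data were seen that left 3759, 2030, 2170 and 2103 Pax7-positive cells in B10, *mdx*, DBA and D2-*mdx*.

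*Ryr3* (chr2:112631355-113217096, minus strand) encodes a second ryanodine receptor, expressed widely and, in skeletal muscle, mostly in development and in some adult muscles. In Pax7-positive cells it was read at 97.8 CPM in B10 and 115 CPM in DBA, against 13.5 CPM in *mdx* and 8.35 CPM in D2-*mdx*. A *Ryr3* UMI was found in 42.5% of Pax7-positive cells in B10 (95% interval 41.0 to 44.0), in 56.4% in DBA, in 8.61% in *mdx* and in 5.21% in D2-*mdx*. The order was the same after every cell was thinned to 3000 UMIs, at 22.3%, 27.2%, 4.38% and 2.67%. These shares are over the 4307 of 4343 Pax7-positive cells of B10 that reached this depth, and over all such cells elsewhere. In non-myogenic cells, whose median depth was 8753, 7085, 10991 and 6816 UMIs beside 8411, 6755, 10252 and 6142 in Pax7-positive cells, the unthinned shares were 4.42% in B10 and 2.92% in DBA, and 0.337% in *mdx* and 0.0864% in D2-*mdx*. Each library therefore had more cells with *Ryr3* among its Pax7-positive cells than among its non-myogenic ones.

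The ratio of *Ryr3* CPM in Pax7-positive cells was 7.23-fold lower in *mdx* than in B10, a log2 ratio of -2.85 (-3.00 to -2.71), and 13.8-fold lower in D2-*mdx* than in DBA, a log2 ratio of -3.79 (-4.00 to -3.58). Over 17 other ways of choosing cells or scaling, the log2 ratios stayed between -2.97 and -2.62 in the first pair and between -3.88 and -3.40 in the second. Over both pairs the fitted log2 ratio was -3.25 (SE 0.22, edgeR adjusted p = 0.000207). *Ryr3* was lower in Myog-positive than in Pax7-positive cells of each library, by -1.46, -1.09, -2.43 and -1.46 on the log2 scale in B10, *mdx*, DBA and D2-*mdx*, and the fitted log2 ratio was -1.54 (SE 0.23, edgeR adjusted p = 0.000998). Without the library term this call was lost, at a log2 ratio of -2.57 (edgeR adjusted p = 0.107). Myog-positive cells gave only 7, 20, 9 and 9 *Ryr3* UMIs, 71.4% of those of B10 in a single cell. In *mdx*, 12 of the 20 lay in cells with 2 to 19 *Myog* UMIs. *Ryr3* stood there at 14.5 CPM (7.47 to 25.3), not below the Pax7-positive cells of that library. At 20 to 59 and at least 60 *Myog* UMIs it stood at 3.11 and 3.70 CPM in *mdx*. Among the control Pax7-positive cells, *Ryr3* stood at 70.3, 85.8 and 103 CPM in B10 cells with 1 to 2, 3 to 5 and at least 6 *Pax7* UMIs, and at 91.8, 118 and 117 CPM in DBA cells. *Aven*, which overlaps *Ryr3* on the opposite strand, was level across the libraries at 20.4 to 24.6 CPM in Pax7-positive cells. Whether strand was used in counting is not given in the sources used here.

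The voltage sensor genes were detected unequally. *Cacna1s* (chr1:136052750-136119822, plus strand), which encodes the pore and voltage sensor of the skeletal muscle calcium channel, had 3 UMIs in Pax7-positive, 3 in Myog-positive and 2 in non-myogenic cells over the 4 libraries together, too few for a comparison. A count of 0 would allow up to 0.0767 to 0.130 CPM in a library's Pax7-positive cells. *Cacng1* (chr11:107703218-107716522, minus strand), which encodes the channel's gamma subunit, was read at 2.79 CPM in B10 and 1.60 CPM in DBA Pax7-positive cells, against 83.8 CPM in *mdx* and 88.6 CPM in D2-*mdx*. The control and DMD libraries were thus far apart, and the libraries within each kind were close.

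The ratio of *Cacng1* in Pax7-positive cells was 30.05-fold in *mdx* over B10, a log2 ratio of 4.91 (4.63 to 5.199), and 55.5-fold in D2-*mdx* over DBA, a log2 ratio of 5.79 (5.37 to 6.25). Over both pairs the fitted log2 ratio was 5.33 (SE 0.21, edgeR adjusted p = 5.25e-05). A *Cacng1* UMI was found in 30.6% of Pax7-positive cells in *mdx* and 31.4% in D2-*mdx*, against 1.68% in B10 and 1.31% in DBA. At 3000 UMIs per cell the shares were 14.6% and 16.5% against 0.789% and 0.346%. In non-myogenic cells the unthinned shares were 1.94% in *mdx* and 2.25% in D2-*mdx*, with 0 of 113 cells in B10 (upper 95% limit 3.21%) and 0.674% in DBA. The shares in the DMD satellite cells lay well above these. The rule for non-myogenic cells left out any cell with a UMI of *Pax7*, *Myf5*, *Myod1* or *Myog*. It could thus lower their share of stray myogenic RNA in advance, and the part of free RNA was not tested. Shares in control satellite cells lay below those of non-myogenic cells in the DMD libraries. They lay above those of non-myogenic cells in their own library, with 95% intervals that overlapped in B10 and in DBA. These control shares are not read as expression of the class as a whole. The most in 1 cell was 7 UMIs, of 109 in B10 and of 46 in DBA. Non-myogenic cells of D2-*mdx* also reached 7 in a cell, of 33. Whether a few control cells expressed the gene was not tested. Over the other settings the log2 ratios ran from 4.24 to 5.11 and from 5.50 to 6.17, and leaving out cells with a *Myod1*, a *Cdkn1c* or *Postn*, or a *Mki67* or *Top2a* UMI was among them.

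*Cacng1* was also higher in Myog-positive than in Pax7-positive cells, with a fitted log2 ratio of 1.85 (SE 0.37, edgeR adjusted p = 0.00514). Its levels there were 211 CPM in *mdx* and 267 CPM in D2-*mdx*, from 665 and 791 UMIs, while B10 had 1 UMI and DBA 9 (21.3 CPM). Per library the log2 ratios were 0.86, 1.34, 3.74 and 1.59 in B10, *mdx*, DBA and D2-*mdx*. The adjusted p was 0.305 without the library term and 0.0587 without D2-*mdx*. In non-myogenic cells *Cacng1* had 0, 26, 4 and 33 UMIs, and the fitted log2 ratio to Pax7-positive cells was -4.58 (SE 0.47, edgeR adjusted p = 2.54e-05).

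**Figure D3:**
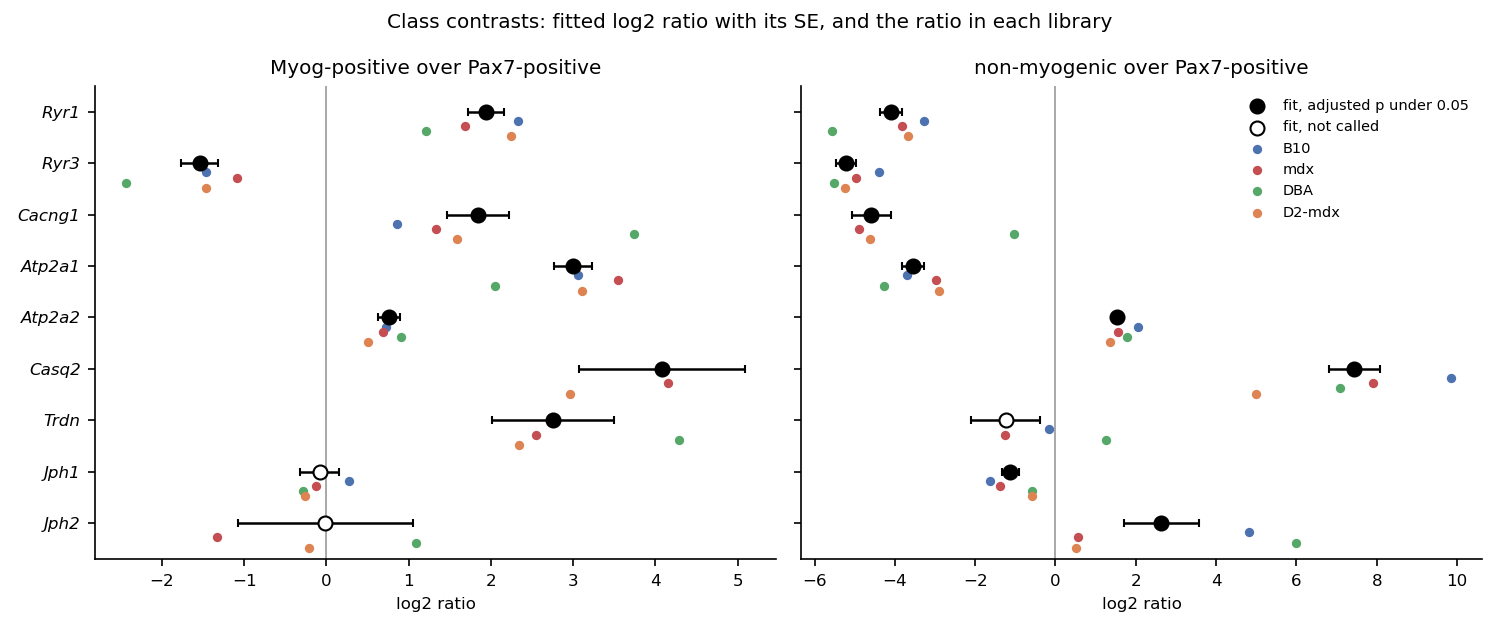
Fitted log2 ratio with its SE (large points, filled where the edgeR adjusted p was under 0.05 and open where not) and the log2 ratio in each library (small points) for 9 genes, Myog-positive over Pax7-positive cells on the left and non-myogenic over Pax7-positive cells on the right. Atp2a1 has the largest ratio with all 4 libraries measured on the left (3.003), and on the right the B10 and DBA points of Jph2 (4.81 and 5.99) lie far from those of mdx and D2-mdx (0.56 and 0.50).

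The pumps differed in the classes that held them. *Atp2a1* (chr7:126445858-126463108, minus strand), the fast-fibre SERCA pump, was read in Myog-positive cells at 406 CPM in B10 (322 to 506) and 126 CPM in DBA (94.0 to 164), and at 359 CPM in *mdx* (338 to 380) and 148 CPM in D2-*mdx* (134 to 162). In Pax7-positive cells of the same libraries it stood at 48.6 and 30.2 CPM in the controls and at 30.6 and 17.1 CPM in the models. The Myog-positive level was 8.36 and 4.16 times the Pax7-positive one in B10 and DBA and 11.7 and 8.66 times in *mdx* and D2-*mdx*, and the ranges of the classes did not overlap. The fit gave 8.02-fold, a log2 ratio of 3.003 (SE 0.23, edgeR adjusted p = 3.49e-05). In B10, 33 of the 80 Myog-positive UMIs came from 1 of its 10 cells. The summed fibre gene list was also higher in Myog-positive than in Pax7-positive cells of each library, at 45.7 against 37.9 CPM in B10, 47.4 against 31.6 CPM in DBA, 686 against 63.0 CPM in *mdx* and 916 against 181 CPM in D2-*mdx*, and its part in the *Atp2a1* ratio was not tested. Non-myogenic cells held 1.56 to 3.91 CPM, and the fitted log2 ratio to Pax7-positive cells was -3.55 (SE 0.28, edgeR adjusted p = 3.76e-06).

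Between strains, *Atp2a1* in Pax7-positive cells was 1.59-fold lower in *mdx* than in B10 (log2 ratio -0.67, -0.78 to -0.55) and 1.77-fold lower in D2-*mdx* than in DBA (-0.82, -0.998 to -0.65), neither past 2-fold. Over both pairs the fitted log2 ratio was -0.69 (SE 0.12, edgeR adjusted p = 0.00593). The call was lost without the background term (adjusted p = 0.273) and without the cells that held a *Myod1* UMI (adjusted p = 0.0572). Without the cells with a *Cdkn1c* or *Postn* UMI the log2 ratios were -1.53 and -1.31. *Atp2a1* was read at a lower level on the DBA/2 background in both the control and the DMD libraries, with a log2 ratio in Pax7-positive cells of -0.69 (-0.80 to -0.57) between DBA and B10 and of -0.84 (-1.01 to -0.67) between D2-*mdx* and *mdx*. In Myog-positive cells the log2 ratio of D2-*mdx* to *mdx* was -1.28 (-1.44 to -1.12). *Rabep2*, on the opposite strand of the same stretch, was at 18.02 to 24.8 CPM in Pax7-positive cells.

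Within the Myog-positive class of the DMD libraries, *Atp2a1* was higher in cells with more *Myog* UMIs. In *mdx* it stood at 158 CPM in 71 cells with 2 to 19 *Myog* UMIs, 265 CPM in 72 cells with 20 to 59, and 549 CPM in 70 cells with at least 60. D2-*mdx* had 54.0, 137 and 333 CPM in 113, 53 and 43 cells. The 10 cells of B10 gave 145, 346 and 899 CPM in 5, 2 and 3 cells. The 24 cells of DBA, with 35, 12 and 6 UMIs, did not show this order, at 137, 110.0 and 103 CPM. *Ryr1*, at 63.9, 58.1 and 45.9 CPM in *mdx* and 47.7, 59.5 and 55.3 CPM in D2-*mdx*, showed no such order. *Cacng1* stood at 209.7, 188 and 229 CPM in *mdx* and at 224, 291 and 325 CPM in D2-*mdx*, and *Trdn* at 2.41, 4.15 and 9.62 CPM and at 2.08, 10.8 and 16.7 CPM. Depth moved with these bins, with median UMIs per cell of 10518, 12628 and 19096 in *mdx* and 10692, 12671 and 17618 in D2-*mdx*, and CPM divides by the depth of the bin. In Myog-positive cells that also held a *Pax7* UMI, *Atp2a1* was at 237 CPM in *mdx* and 100.1 CPM in D2-*mdx*, against 415 and 189 CPM in those without one.

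**Figure D4:**
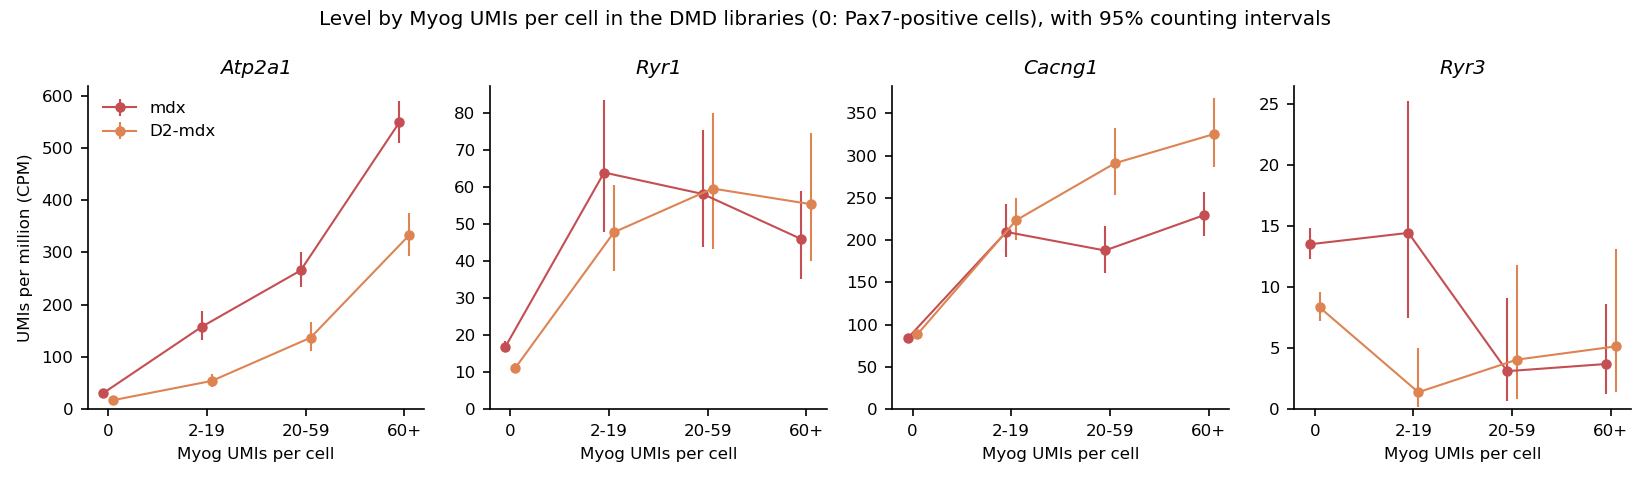
CPM (vertical axis) of Atp2a1, Ryr1, Cacng1 and Ryr3 in mdx and D2-mdx cells binned by their Myog UMIs (horizontal axis: 0, which are the Pax7-positive cells, then 2 to 19, 20 to 59 and 60 or more), with 95% counting intervals. Atp2a1 is higher in each bin than in the one before it, reaching 549 CPM in mdx and 333 CPM in D2-mdx, while Ryr1 is nearly flat over the Myog-positive bins. Ryr3 is low in all of them, though in mdx its 14.5 CPM at 2 to 19 Myog UMIs is not below the 13.5 CPM of Pax7-positive cells.

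Myog-positive cells held very different shares of the *Atp2a1* UMIs in the DMD and the control libraries. Of the *Atp2a1* UMIs in both myogenic classes, Myog-positive cells held 53.6% in *mdx* and 52.6% in D2-*mdx*, against 4.04% in B10 and 5.74% in DBA. These cells made up 5.14% and 6.30% of the myogenic cells in the models and 0.230% and 0.915% in the controls. *Ryr1* was shared likewise, with 24.2% and 37.8% of its UMIs in Myog-positive cells of *mdx* and D2-*mdx* against 2.48% and 3.28%. These shares moved with the rule for the cells: over 15 alternatives that of *Atp2a1* ran from 45.6% to 83.8% in *mdx*, 40.4% to 72.04% in D2-*mdx*, 1.83% to 7.68% in B10 and 1.51% to 14.6% in DBA, and that of *Ryr1* from 15.2% to 59.6% in *mdx* and 22.6% to 55.1% in D2-*mdx*. Of all UMIs the class held 8.98% in *mdx* and 11.4% in D2-*mdx*. *Ryr3* was below these, with 4.43% (2.73 to 6.77) and 4.46% (2.06 to 8.29). The intervals of *Jph1*, with 8.27% (6.36 to 10.5) and 9.65% (7.18 to 12.6), held them. *Jph2* was below in *mdx*, with 3.77% (2.40 to 5.60), but not distinguishable in D2-*mdx*, with 9.95% (7.20 to 13.3).

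When both myogenic classes were summed, the log2 ratios of *Atp2a1* were 0.26 (0.17 to 0.34) in the *mdx* pair and 0.02 (-0.12 to 0.15) in the D2-*mdx* pair, where the Pax7-positive cells alone gave -0.67 and -0.82. *Ryr1* stood at 1.13 (0.95 to 1.32) and 0.76 (0.53 to 0.98). The summed cells had 3 members higher (*Ryr1*, *Cacng1* and *Jph2*) and 2 lower (*Ryr3* and *Jph1*) of 7 in *mdx* against B10, where 4.65% of genes were higher and 4.96% lower. They had 2 higher (*Cacng1* and *Jph2*) and 2 lower (*Ryr3* and *Jph1*) of 7 in D2-*mdx* against DBA, where 4.92% were higher and 5.19% lower.

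*Atp2a2* (chr5:122453513-122502225, minus strand), the SERCA pump of slow fibres and of smooth muscle and other cells, was detected in all classes. Pax7-positive cells had 89.2, 83.6, 101 and 80.2 CPM in B10, *mdx*, DBA and D2-*mdx*, Myog-positive cells 147, 135, 189.5 and 114 CPM, and non-myogenic cells 370.4, 245, 349 and 207 CPM. The classes kept this order in each library. The fitted log2 ratio was 0.76 for Myog-positive cells (SE 0.13, edgeR adjusted p = 0.00227) and 1.52 for non-myogenic cells (SE 0.13, edgeR adjusted p = 5.58e-06), each against Pax7-positive cells. With cells thinned to 3000 UMIs the first was not called, at an adjusted p of 0.113. That alternative also set the classes anew on the thinned counts, which left 5 Myog-positive cells in B10 and 14 in DBA. Between strains *Atp2a2* was nearly level in Pax7-positive cells, with log2 ratios of -0.09 (-0.17 to -0.02) in the *mdx* pair and -0.33 (-0.42 to -0.25) in the D2-*mdx* pair.

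Among the genes of the store lumen and the junction, *Casq2* (chr3:102086415-102146514, plus strand), the cardiac and slow-fibre calsequestrin, was barely detected in the myogenic cells. Pax7-positive cells held 3, 4, 3 and 4 UMIs in B10, *mdx*, DBA and D2-*mdx*, and Myog-positive cells 0, 7, 0 and 4. Non-myogenic cells held 76, 276, 73 and 50 UMIs, which are 70.9, 29.98, 14.2 and 5.48 CPM. The fitted log2 ratio of non-myogenic over Pax7-positive cells was 7.44 (SE 0.63, edgeR adjusted p = 6.56e-06). In B10, 31.6% of the non-myogenic UMIs came from a single cell.

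The call of *Casq2* in Myog-positive cells (fitted log2 ratio 4.08, SE 1.01, edgeR adjusted p = 0.0136) rested on the 11 UMIs of *mdx* and D2-*mdx*. The counts of 0 in B10 and DBA allow up to 15.2 and 7.11 CPM in that class, above the 2.23 and 1.35 CPM read in *mdx* and D2-*mdx*. The adjusted p was 0.151 without *mdx* and 0.633 with thinned cells. *Trdn* (chr10:33080554-33476709, plus strand), which encodes triadin, had 41, 33, 14 and 37 UMIs in Pax7-positive cells and 0, 19, 4 and 24 in Myog-positive cells. Its fitted log2 ratio was 2.76 (SE 0.74, edgeR adjusted p = 0.0201), and 1 cell held 8 of the UMIs in each of *mdx* and D2-*mdx*. The call was lost in 10 of 24 alternatives: the adjusted p was 0.0923 when 1 *Myog* UMI sufficed for the class, and in the other 9, among them those without *mdx* or without D2-*mdx*, *Trdn* fell under the filter on low counts. In non-myogenic cells *Trdn* had 1, 4, 6 and 0 UMIs and was not called (log2 ratio -1.24, SE 0.86, edgeR adjusted p = 0.260).

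The junctophilins, which tether the surface membrane to the store, stood apart between DMD and control satellite cells. *Jph1* (chr1:16964560-17097889, minus strand), the skeletal muscle form, stood at 54.6 CPM in B10 and 40.5 CPM in DBA, against 20.5 CPM in *mdx* and 19.02 CPM in D2-*mdx*, in Pax7-positive cells. *Jph2* (chr2:163336242-163397993, minus strand), the form of heart, smooth and skeletal muscle, stood at 2.12 CPM in B10 and 1.11 CPM in DBA, against 18.4 CPM in *mdx* and 15.7 CPM in D2-*mdx*. *Jph1* was thus lower and *Jph2* higher in both DMD libraries than in either control.

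The *Jph1* ratio was 2.66-fold lower in *mdx* than in B10 (log2 ratio -1.41, -1.54 to -1.29) and 2.13-fold lower in D2-*mdx* than in DBA (-1.09, -1.25 to -0.93). The *Jph2* ratio was 8.68-fold in the *mdx* pair (log2 ratio 3.12, 2.78 to 3.47) and 14.1-fold in the D2-*mdx* pair (3.82, 3.29 to 4.39). Over both pairs the fitted log2 ratios were -1.21 for *Jph1* (SE 0.13, edgeR adjusted p = 0.000975) and 3.47 for *Jph2* (SE 0.23, edgeR adjusted p = 0.000207). A *Jph2* UMI was found in 12.7% and 10.1% of Pax7-positive cells in *mdx* and D2-*mdx*, and in 1.89% and 1.23% in B10 and DBA. At 3000 UMIs per cell the shares were 4.56%, 4.18%, 0.627% and 0.385%. Over the other settings the *Jph2* log2 ratios ran from 2.93 to 3.26 and from 3.02 to 3.92, and those of *Jph1* from -1.50 to -1.27 and from -1.16 to -0.96, the last of which is short of 2-fold. Markers of smooth muscle, where *Jph2* is also found, summed to at most 5.92 CPM in Pax7-positive or Myog-positive cells of any library, and those of pericytes to 15.2 to 53.9 CPM. The rules for both classes limit these markers to fewer than 5 UMIs a cell, so low sums were set in advance. The part of such cells in the *Jph2* levels was not tested.

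Neither junctophilin was called between Myog-positive and Pax7-positive cells. *Jph1* stood at 66.0, 18.8, 33.2 and 15.9 CPM in Myog-positive cells of B10, *mdx*, DBA and D2-*mdx*, a fitted log2 ratio of -0.08 (SE 0.23, edgeR adjusted p = 0.844), with 46.2% of the 13 UMIs of B10 in 1 cell. *Jph2* had 0, 23, 1 and 40 UMIs there, a fitted log2 ratio of -0.01 (SE 1.07, edgeR adjusted p = 0.996). In non-myogenic cells *Jph1* was lower than in Pax7-positive cells (log2 ratio -1.13, SE 0.21, edgeR adjusted p = 0.00144). *Jph2* was higher there (log2 ratio 2.63, SE 0.94, edgeR adjusted p = 0.0396), with 59.7, 27.2, 70.6 and 22.2 CPM. Its log2 ratio was 4.81 in B10 and 5.99 in DBA but 0.56 in *mdx* and 0.50 in D2-*mdx*, where Pax7-positive cells held more of it. The call was lost without B10 (adjusted p = 0.205), without DBA (adjusted p = 0.120), and without the library term, where the adjusted p was 0.0545 for *Jph2* and 0.0522 for *Jph1*.

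In Myog-positive cells, 6 members reached 10 CPM in *mdx* or B10, of which *Cacng1* was higher and *Ryr3* and *Jph1* lower past 2-fold, where 12.5% of 8611 genes were higher and 18.1% lower. Of 7 in D2-*mdx* or DBA, *Ryr1*, *Cacng1* and *Jph2* were higher and *Ryr3* and *Jph1* lower, where 10.9% of 8132 genes were higher and 14.1% lower. These backgrounds are larger than in Pax7-positive cells, and the control profiles here hold only 196912 and 422159 UMIs. The log2 ratio of *Ryr3* was -2.48 (-3.78 to -0.998) and -2.81 (-4.32 to -1.30) in the 2 pairs, that of *Jph1* -1.82 (-2.70 to -0.82) and -1.06 (-1.95 to -0.09), and that of *Atp2a1* -0.18 (-0.51 to 0.17) and 0.24 (-0.18 to 0.68). *Cacng1* gave 5.38 (2.90 to 10.7) in *mdx* over B10, against 1 UMI, and 3.65 (2.72 to 4.78) in D2-*mdx* over DBA. *Jph2* in D2-*mdx* over DBA, also against 1 UMI, gave 2.51 (-0.05 to 7.85). Leaving out Myog-positive cells with a *Pax7* UMI kept 2 cells in B10 and 6 in DBA. In *mdx* over B10, *Ryr1* then went from 0.25 to -0.66, *Atp2a1* to -1.28 and *Jph1* to -3.11. In D2-*mdx* over DBA, *Ryr3* went to -0.84 and *Cacng1* to 2.07. The part of the *Pax7*-holding cells in these ratios was not tested.

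Tested over both pairs in Myog-positive cells, 1 of 8 members was called higher, where 7.1% of 8906 genes were, and 2 lower, where 5.05% were. *Cacng1* had a fitted log2 ratio of 4.08 (SE 0.34, edgeR adjusted p = 1.94e-17), against 10 UMIs in both controls together, and was called in all 20 alternatives. With 1 residual degree of freedom, that p draws on a spread moderated over all genes. It is not to be compared with the p of *Cacng1* in Pax7-positive cells. *Ryr3* had -2.50 (SE 0.62, edgeR adjusted p = 0.00242), a call lost in 5 of the 20. *Jph1* had -1.31 (SE 0.43, edgeR adjusted p = 0.0325), a call lost in 8. Those of the 20 that changed only Pax7-positive or non-myogenic cells repeated the reported fit and could not lose a call. *Jph2* (2.90, edgeR adjusted p = 0.0894), *Ryr1* (0.94, edgeR adjusted p = 0.0918) and *Atp2a1* (0.13, edgeR adjusted p = 0.762) were not called.

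Whether the step from Pax7-positive to Myog-positive cells differed between DMD and control libraries was tested as an interaction over both pairs of strains. None of the 8 members tested was called by edgeR at an adjusted p under 0.05, where 0.394% of 12175 genes were called higher and 0.452% lower. *Atp2a1* had the lowest p, with a step larger by 0.98 on the log2 scale in the DMD libraries (SE 0.25, unadjusted p = 0.00107, edgeR adjusted p = 0.0920). *Ryr3* followed with 1.04 (SE 0.46, unadjusted p = 0.0337, edgeR adjusted p = 0.428) and *Cacng1* with -1.30 (SE 0.58, unadjusted p = 0.0366, edgeR adjusted p = 0.439). The step of *Ryr1* differed by 0.46 (edgeR adjusted p = 0.759). DESeq2 tested 5580 genes, of which 14 were called higher and 53 lower.

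The backgrounds were compared in Pax7-positive cells of the same libraries, so that these ratios share their samples with the DMD ratios above. No member passed 2-fold for DBA over B10, of 4 with at least 10 CPM, where 1.79% of 8338 genes were higher and 1.79% lower. None passed it for D2-*mdx* over *mdx*, of 7, where 1.66% of 8156 genes were higher and 1.62% lower. For DBA over B10 the log2 ratios were 0.02 for *Ryr1*, 0.24 for *Ryr3*, 0.18 for *Atp2a2* and -0.43 for *Jph1*. *Cacng1* and *Jph2*, both under 10 CPM in these controls, gave -0.80 (-1.33 to -0.29) and -0.93. For D2-*mdx* over *mdx* they gave 0.08 and -0.23, beside -0.60 for *Ryr1*, -0.70 for *Ryr3* and -0.11 for *Jph1*.

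Non-myogenic cells were grouped by the marker list with the most UMIs, and 4 of the 10 genes reached 10 CPM in the class as a whole. Vascular smooth muscle cells, 109 in all, held the highest *Atp2a2*, *Casq2* and *Jph2*, with *Atp2a2* at 882 to 1195 CPM over the 3 libraries with at least 20 such cells (mean 1033, SD 157, n = 3), *Casq2* at 160 to 396 CPM and *Jph2* at 106 to 158 CPM. Pericytes, 1784 in all, had *Atp2a2* at 229.6 to 354 CPM and *Jph2* at 58.0, 39.5, 67.8 and 29.5 CPM in B10, *mdx*, DBA and D2-*mdx*, but *Casq2* at only 1.14 to 13.9 CPM. The ranges of *Casq2* and of *Jph2* in these groups did not overlap. *Atp2a2* was lower in endothelial cells (74.9 to 86.4 CPM), in glial and Schwann cells (97.2 to 118 CPM) and in white blood cells (112 to 114 CPM), and stood at 209 CPM in the fibroblast or tenocyte cells of the only library with enough of them. *Jph1* was at 14.3 to 29.1 CPM in pericytes, at 5.74 to 14.3 CPM in vascular smooth muscle and at 4.31 to 33.3 CPM in glial and Schwann cells. *Atp2a1* was at 12.2 CPM in the white blood cells of 1 library and 1.82 CPM in those of the other with enough cells.

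**Figure D5:**
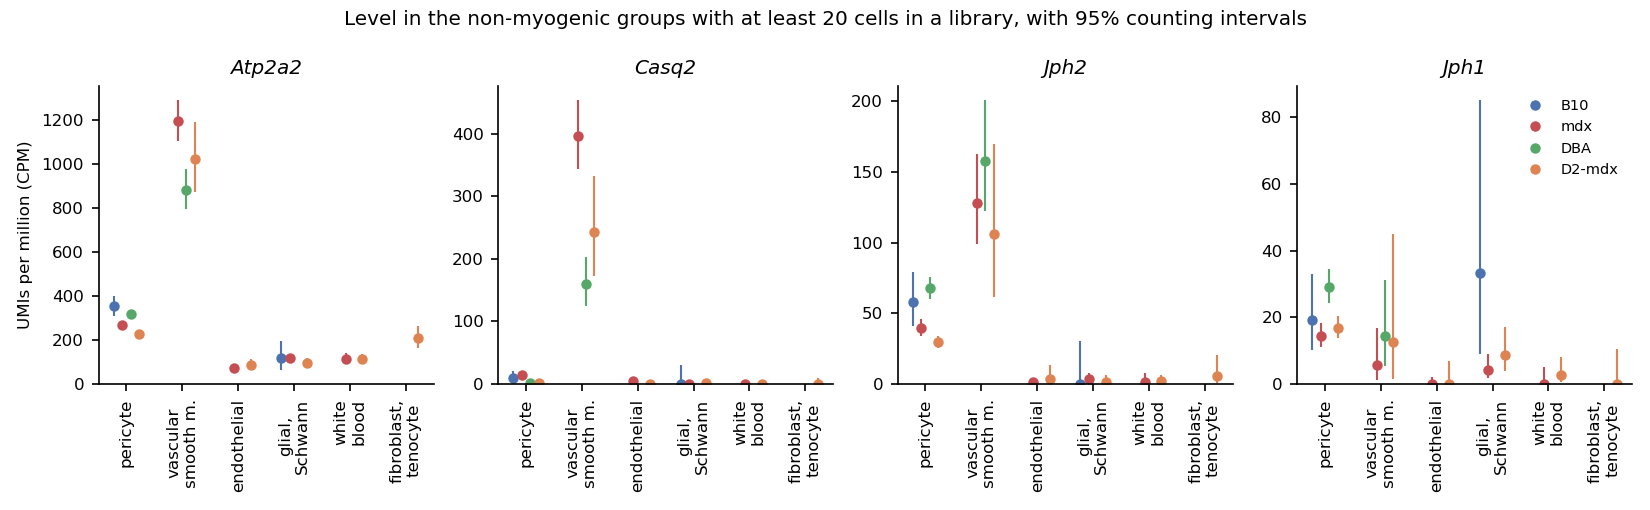
CPM (vertical axis) of Atp2a2, Casq2, Jph2 and Jph1 in the non-myogenic cell groups set by markers (horizontal axis), 1 point for each library with at least 20 cells of the group and bars for 95% counting intervals. Vascular smooth muscle cells hold the highest Atp2a2 (882 to 1195 CPM) and Casq2 (160 to 396 CPM), well above pericytes, and Jph2 is above 100 CPM only there.

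Over all non-myogenic cells the log2 ratios of *mdx* over B10 and of D2-*mdx* over DBA were -1.24 and -1.38 for *Casq2*, -1.16 and -1.10 for *Jph1*, -1.14 and -1.67 for *Jph2* and -0.60 and -0.75 for *Atp2a2*. The makeup of the class differed too: pericytes numbered 67 of 113 cells in B10, 540 of 1186 in *mdx*, 385 of 445 in DBA and 792 of 1157 in D2-*mdx*, and vascular smooth muscle cells 9, 48, 32 and 20. The part of this makeup in the ratios was not tested.

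A list of 36 other calcium handling genes sets the members in their pathway, and 34 of them were tested between classes. In Myog-positive over Pax7-positive cells, 9 were called higher, 6 lower and 19 not, where 13.8% and 14.6% of all genes tested were higher and lower, with a median log2 ratio of -0.17. The largest rises were of *Hrc*, a calcium-binding protein of the store lumen (log2 ratio 4.30, edgeR adjusted p = 0.00138), of *Srl*, a sarcoplasmic reticulum protein (3.34, adjusted p = 0.000601), and of *Atp2a3*, the third SERCA pump (2.24, adjusted p = 0.0107). The largest falls were of the channel *Trpc1* (-2.72, adjusted p = 0.00612), the plasma membrane pump *Atp2b4* (-1.63, adjusted p = 0.000742) and the inositol trisphosphate receptor *Itpr1* (-1.50, adjusted p = 0.0112).

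In non-myogenic over Pax7-positive cells, 13 genes of that list were called higher, 8 lower and 13 not, beside 25.5% and 23.4% of all genes, with a median log2 ratio of 0.29. *Cacna1c*, the calcium channel of smooth and cardiac muscle, led the higher genes (7.17, edgeR adjusted p = 4.47e-07), with *Hrc* (5.83, adjusted p = 1.67e-05) and the sodium-calcium exchanger *Slc8a1* (5.48, adjusted p = 0.00108). *Sln*, the SERCA inhibitor sarcolipin (-5.07, edgeR adjusted p = 0.000136), led the lower ones, with *Jsrp1* (-4.05, adjusted p = 2.39e-06) and *Stac3* (-3.79, adjusted p = 4.24e-05), both parts of the skeletal muscle coupling machinery. In Pax7-positive cells of the DMD libraries, 0 of 20 genes with at least 10 CPM were past 2-fold higher and 5 lower in *mdx* against B10 (*Itpr1*, *Itpr2*, *Stac3*, *Sln* and *Stim2*). Of all genes there, 4.4% were higher and 4.63% lower. In D2-*mdx* against DBA, 1 of 21 was higher (*Itpr3*) and 3 lower (*Itpr1*, *Stac3* and *Stim2*), where 4.59% of all genes were higher and 4.57% lower.

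Likeness of pattern was measured as Pearson's r of log2(CPM + 1) over the 12 profiles of 3 classes and 4 libraries, with 11198 genes compared, as a description only. Each profile shares its library with others, and Myog-positive profiles of the controls are shallow. Among the members, *Atp2a1* and *Ryr1* were alike (r = 0.966), as were *Jph1* and *Ryr3* (0.870) and *Atp2a2* and *Casq2* (0.845). Over all genes, the nearest to *Ryr1* were *Iffo1* (0.988), *Rad23b* (0.985) and *Cobl* (0.982), and to *Atp2a1* *Ccdc134* (0.986), *Pus1* (0.984) and *Ncbp2* (0.979). *Ryr3* was nearest to *Mtr* (0.977), *Usp36* (0.974) and *R3hdm1* (0.959), and *Cacng1* to *Cops2* (0.962), *Sec61g* (0.961) and *Uqcrh* (0.961). *Jph2* was nearest to the matrix genes *Thbs1* (0.978) and *Tnc* (0.963) and to *Ctxn1* (0.964), *Jph1* to *Cul9* (0.951), *Usp19* (0.940) and *Zhx2* (0.923), *Casq2* to *Fam81a* (0.978), *Reln* (0.972) and *Sept3* (0.968), and *Atp2a2* to *Nin* (0.977), *Macf1* (0.964) and *Lzts2* (0.960). *Cacna1s* and *Trdn* were under 10 CPM in every profile and were not compared.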

How the data were processed

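RNA of sorted muscle stem cells was read in 4 droplet libraries, 1 for each strain. Per the submitters' processing notes, the authors used Cell Ranger 3.0.1 and the mm10 genome, and what they deposited are raw UMI counts for each gene and barcode, with no normalization. Whether strand was used is not given in the sources used here. Kept were barcodes with 1000 to 5000 detected genes whose mitochondrial share was no more than 8%, less predicted doublets. These were the cells with the highest Scrublet scores (scanpy 1.11.5), 181, 356, 91 and 293 in B10, *mdx*, DBA and D2-*mdx*. Their number was set by the number of cells at an assumed rate of 0.008 per 1000 cells, not by Scrublet's own calls. Cells with at least 2% of their UMIs in *Acta1*, *Tnnc2* and *Tnnt3* were left out as fibre-rich (0, 1, 0 and 2), and 115, 986, 211 and 1277 cells were in no class. *Tnnc2* and *Tnnt3* are also in the list of 8 fibre genes, so this rule limited the sums of that list.

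UMIs were summed by class and library into 12 profiles, from 196912 to 39091140 UMIs each. Classes were compared with edgeR 4.0.16 (R 4.3.3; TMM, filterByExpr, quasi-likelihood test, library as a term), with Benjamini-Hochberg adjustment over all genes tested, and the interaction of class with DMD in the 8 myogenic profiles. DMD was compared with control within each myogenic class by the same test, with the background as a term over 2 pairs of libraries. The SE given for a fitted log2 ratio is its absolute value divided by the square root of its quasi-likelihood F statistic. It thus carries the moderated spread of the test. Ratios between libraries have exact binomial intervals, levels exact Poisson intervals and shares Clopper-Pearson intervals, all at 95%. An upper limit for a count of 0 is 3 UMIs. Thinning and doublet scores used seed 1. Scripts were tested on simulated data. Gene positions come from GENCODE M21 on GRCm38.

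Named are the 10 members, *Dmd*, *Pax7*, *Myf5* and *Myog* as checks, up to 3 pathway genes in each direction of a class contrast by size among those called, the 3 most similar genes of each member, genes that overlap a member, and the genes of the fibre filter. All pathway genes past 2-fold between DMD and control in Pax7-positive cells are named too. For the alternatives that left out some Pax7-positive cells, *Cdkn1c*, *Postn*, *Myod1*, *Mki67* and *Top2a* were chosen after values were seen. The members and lists were chosen with earlier results of these data known. Alternatives covered cell filters, class rules, thinning, gene filters, scaling, the library term, DESeq2 1.42.0 and each library left out. An alternative that changed only another class left the comparison of libraries within a class as it was. It still counts among the alternatives.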

Additional observations from a re-analysis of the deposited data

Results flagged for a closer look

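Member transcripts were also read in barcodes that the reported comparisons left out, though some alternatives kept part of them. The B10 barcodes with fewer than 1000 genes, 4739 in number, held *Ryr3* at 154.27 CPM (414 UMIs), above the 97.8 CPM of the Pax7-positive cells of that library. The single fibre-rich barcode of *mdx* held *Atp2a1* at 4362.3 CPM, from 17 UMIs. The 2 fibre-rich barcodes of D2-*mdx* held *Atp2a1* at 690.55 CPM (18 UMIs) and *Trdn* at 575.46 CPM (15 UMIs), each above its level in the Myog-positive cells of that library.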

How the results depend on the processing

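Members called higher in Myog-positive over Pax7-positive cells were 3 in place of 6 with cells thinned to 3000 UMIs (*Casq2*, *Atp2a2* and *Trdn* were lost), and those called lower were 0 in place of 1 without the library term (*Ryr3* was lost, adjusted p = 0.107). Over all genes, 811 of 11137 were called higher with thinning, against 1764 of 12751 in the reported fit. Genes called lower without the library term were 1358 of 12751, against 1858. With a library left out the members called higher ran from 4 to 6 (without *mdx* *Casq2* and *Trdn* were lost, without D2-*mdx* *Trdn* and *Cacng1*) and those called lower stayed at 1. All genes called higher were 819 of 12379 without *mdx* and 849 of 12345 without D2-*mdx*. With a library left out, all genes called lower ran from 946 of 12379 without *mdx* to 1850 of 13152 without DBA. With a library left out, the counts for non-myogenic over Pax7-positive cells ran from 2 to 3 higher and stayed at 5 lower, *Jph2* being lost without B10 or DBA. Without the library term they were 2 and 4, *Jph2* and *Jph1* being lost. All genes called higher in this contrast were 3162 of 13216 without B10 and 3717 of 13152 without DBA. With a library left out, all genes called lower in it ran from 1579 of 12345 without D2-*mdx* to 2763 of 13216 without B10. Without the library term 2588 of 12751 were higher and 2078 lower, against 3254 and 2989 in the reported fit. The interaction gave 1 member higher in place of 0, *Atp2a1*, with doublets kept, at most 5% mitochondrial UMIs, no filter on low counts or *Cdkn1c* and *Postn* cells left out (adjusted p = 0.0237, 0.0376, 0.00466 and 0.00868), and 1 lower in place of 0, *Cacng1*, with at least 500 genes (adjusted p = 0.0216). In that order, 82 of 12201, 64 of 12025, 93 of 20016 and 43 of 11614 genes were higher, and 89 of 12403 lower. The reported fit had 48 higher and 55 lower of 12175.

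Of the DMD over control counts, 196 stayed within 1.5 times under the alternatives and 20 did not. A minimum of 50 CPM left 1 member in place of 2 higher in Pax7-positive cells of each pair, 1 in place of 2 lower in those of D2-*mdx*, 1 higher in the summed classes of each pair, 1 lower in those of D2-*mdx*, and in Myog-positive cells 1 lower in *mdx* and 0 lower in D2-*mdx*. UMIs of each cell split at random, 1 part to set the class and 1 to measure, left 1 lower in place of 2 in D2-*mdx* in Pax7-positive, Myog-positive and summed cells. In Myog-positive cells of *mdx*, 2 were higher in place of 1 with 1 *Myog* UMI, at least 500 genes or thinning, and 0 lower in place of 2 with thinning. In those of D2-*mdx*, 1 was lower in place of 2 with at least 1 or 5 *Myog* UMIs, cells with *Pax7* left out, at least 500 genes or TMM over the profiles. A minimum of 50 CPM leaves fewer members by construction. The cause of the other changes was not tested. Shares of all genes past 2-fold were not counted under these alternatives.

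*Jph2* in Myog-positive over Pax7-positive cells changed sign from -0.01 to 0.16 with 1 *Myog* UMI, 0.69 with at least 500 genes, 0.17 with split UMIs, 0.013 without *Myod1* cells and 0.051 without *Cdkn1c* or *Postn* cells, and ran from -0.47 to 0.56 with a library left out; it was not called in the fit reported. Of the other class ratios of members, 397 kept direction and call, 11 lost the call, and *Trdn* was no longer tested in 9 alternatives for Myog-positive over Pax7-positive cells. The share of a member's UMIs in Myog-positive cells moved beyond its interval in 147 of 568 values. DESeq2 size factors moved the median log2 ratio of all genes in non-myogenic over Pax7-positive cells from -0.05 to 0.08, and the calls from 3254 higher and 2989 lower to 3738 and 2330.

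For DMD over control paired by background, a test chosen after the data were seen, the 3 members higher and 3 lower in Pax7-positive cells stayed within 1.5 times. In Myog-positive cells 3 were higher in place of 1 with at least 500 genes. There, 1 was lower in place of 2 with at least 5 *Myog* UMIs, doublets kept or no filter on low counts, and 0 with *Pax7* cells left out, thinning, split UMIs, DESeq2 or no background term. Over all genes, 739 of 9690 were higher with at least 500 genes, against 632 of 8906 in the reported fit. Lower were 450 of 8906 in that fit. In the order named, they were 278 of 8575, 353 of 8916 and 315 of 15302, then 52 of 7094, 9 of 4244, 242 of 7236, 78 of 6488 and 59 of 8906. Uncalled ratios of members in Myog-positive cells changed sign, *Atp2a1* from 0.13 to -0.11 with at least 5 *Myog* UMIs, -0.15 with *Pax7* cells left out and -0.030 with split UMIs, *Atp2a2* from -0.36 to 0.45 with thinning, and *Trdn* from 0.38 to -0.23 with at most 5% mitochondrial UMIs.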
